A study of Mus musculus with 36 samples.

Results

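The vomeronasal type 2 receptors (Vmn2r genes) were examined as the bins of H3K9me3, trimethylation of lysine 9 on histone H3, whose assigned gene symbol began with Vmn2r and which lay on an autosome. A bin is a piece of a peak of up to 501 bp. The 6 tables of the series held between 364 and 426 such bins, of between 101386 and 158810 autosomal bins in all, a share of 0.268% to 0.366%. They were assigned to 100 genes on 7 chromosomes, and over all tables they came to 2335 listed bins, 993 distinct positions and 868 distinct peaks. Bins of 1 X-linked Vmn2r gene, 2 to 12 per table, were left out.

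H3K9me3 ChIP-seq was carried out on liver tissue of male and female mouse offspring. The mice were littermate control animals from a Reg3g fl/fl colony, and their dams had eaten a control chow diet or, for maternal obesity (MO), a Western-style diet before and during pregnancy and lactation. The 32 ChIP libraries formed 8 groups of 4: control females (CF), MO females (MF), control males (CM) and MO males (MM), each at 3 weeks of age, before weaning, and at 8 weeks, after weaning onto chow. There were also 4 input libraries. Each table pooled 8 libraries, either the MO and control groups of 1 sex at 1 age, or the control groups of 1 sex at both ages. For each bin the value used here was the average log2 CPM (read counts scaled to library size) over those libraries. A value per library was not analysed here, so these averages carry no SD and no test of diet or age was made. In whole tissue, fewer cells carrying the mark and less of the mark per cell cannot be told apart.

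Type 2 vomeronasal receptors are class C G protein-coupled receptors with a large extracellular ligand-binding domain. They are produced by sensory neurons of the basal layer of the vomeronasal organ, where they detect peptide and protein pheromones and signal through the G protein subunit Gnao1 and the channel Trpc2. The genes lie in tandem clusters that expanded in rodents, and they are not known for a role in liver. H3K9me3 marks repressed heterochromatin, at silent genes and at transposable elements.

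A group of 10 of the 420 female bins, near 10 genes on 3 chromosomes shared a stretch of sequence. Their highest signals relative to the autosomal median of the table ranged from 0.16 to 1.27 log2, with a median of 0.82, the highest among the 5 largest groups of this kind. The 4 with the highest signal are shown, so their values are not those of the whole group. Bases that belong to a run of 20 letters found in another of the 4 bins are in capitals, and the sequences are the plus strand of GRCm38.
Vmn2r18, intron 1, chr5:151592971-151593270: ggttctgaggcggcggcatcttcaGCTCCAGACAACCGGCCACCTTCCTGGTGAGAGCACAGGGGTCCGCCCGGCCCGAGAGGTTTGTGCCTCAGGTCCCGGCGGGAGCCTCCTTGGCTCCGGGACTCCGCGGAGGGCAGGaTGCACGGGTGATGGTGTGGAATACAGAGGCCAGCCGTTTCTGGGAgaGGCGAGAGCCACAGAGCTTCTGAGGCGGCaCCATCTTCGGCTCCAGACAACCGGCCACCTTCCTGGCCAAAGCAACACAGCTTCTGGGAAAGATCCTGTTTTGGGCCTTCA
Vmn2r26, chr6:123940772-123941071: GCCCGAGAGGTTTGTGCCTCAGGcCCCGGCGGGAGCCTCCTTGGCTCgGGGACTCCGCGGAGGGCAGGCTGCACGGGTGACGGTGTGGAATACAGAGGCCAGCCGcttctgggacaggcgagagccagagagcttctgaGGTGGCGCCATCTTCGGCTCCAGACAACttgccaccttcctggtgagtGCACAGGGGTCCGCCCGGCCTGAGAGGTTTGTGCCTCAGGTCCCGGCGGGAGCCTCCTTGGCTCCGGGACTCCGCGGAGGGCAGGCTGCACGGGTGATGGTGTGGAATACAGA
Vmn2r53, intron 4, chr7:12588201-12588500: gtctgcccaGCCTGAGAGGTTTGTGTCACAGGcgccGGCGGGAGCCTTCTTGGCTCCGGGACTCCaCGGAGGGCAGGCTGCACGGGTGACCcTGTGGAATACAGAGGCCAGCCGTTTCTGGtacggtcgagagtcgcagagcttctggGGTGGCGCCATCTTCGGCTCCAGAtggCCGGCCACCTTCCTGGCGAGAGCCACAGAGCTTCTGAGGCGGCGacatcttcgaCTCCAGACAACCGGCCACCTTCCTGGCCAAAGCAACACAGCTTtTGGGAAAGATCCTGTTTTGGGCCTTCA
Vmn2r67, intergenic, chr7:85175063-85175362: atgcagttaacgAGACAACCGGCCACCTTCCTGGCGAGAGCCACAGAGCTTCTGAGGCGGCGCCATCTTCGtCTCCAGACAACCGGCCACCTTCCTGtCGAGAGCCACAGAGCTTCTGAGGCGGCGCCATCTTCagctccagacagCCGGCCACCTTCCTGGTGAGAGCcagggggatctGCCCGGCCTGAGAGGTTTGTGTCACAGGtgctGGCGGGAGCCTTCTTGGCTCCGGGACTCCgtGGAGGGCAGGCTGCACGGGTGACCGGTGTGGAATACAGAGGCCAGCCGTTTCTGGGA
Between 244 and 272 of the 300 bases shown were shared in each. In the 8-week female table these bins stood 1.27, 1.17, 1.16 and 1.03 above the autosomal median on the log2 scale for Vmn2r18, Vmn2r26, Vmn2r53 and Vmn2r67. The shared stretch was not matched to a repeat family here.

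The strongest of all Vmn2r bins, in males at 8 weeks, was assigned to Vmn2r112 by distance alone, 91134 bp from its start site, in intergenic sequence. Its counterpart in females lay 91130 bp away, and the last 300 bases of that bin are shown with the soft-masked bases, those the reference marks as repeats, in capitals.
Vmn2r112, intergenic, chr17:22692282-22692581: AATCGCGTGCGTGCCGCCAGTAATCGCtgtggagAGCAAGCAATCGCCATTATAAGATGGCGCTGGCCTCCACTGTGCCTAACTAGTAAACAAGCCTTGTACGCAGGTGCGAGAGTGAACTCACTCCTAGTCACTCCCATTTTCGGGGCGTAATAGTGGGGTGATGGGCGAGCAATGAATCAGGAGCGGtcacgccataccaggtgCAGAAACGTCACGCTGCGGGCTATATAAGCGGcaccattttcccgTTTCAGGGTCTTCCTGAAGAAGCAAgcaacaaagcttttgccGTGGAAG
Of these, 246 bases were soft-masked, and over the whole bin 58.7% were.

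The promoters looked different. The windows below run from 250 bases before to 50 after the start site in RefSeq (GRCm38.p6), and 2 are printed from the 10 genes with the most gene-body signal. Every CG pair, the site of DNA methylation in vertebrates, is in capitals.
Vmn2r11, minus strand, chr5:109059403-109059702: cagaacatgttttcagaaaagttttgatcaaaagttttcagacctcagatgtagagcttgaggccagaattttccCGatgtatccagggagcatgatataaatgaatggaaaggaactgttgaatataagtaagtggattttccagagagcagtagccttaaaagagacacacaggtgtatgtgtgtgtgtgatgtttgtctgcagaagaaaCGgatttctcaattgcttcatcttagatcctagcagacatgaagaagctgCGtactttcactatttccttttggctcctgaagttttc
Vmn2r53, minus strand, chr7:12606495-12606794: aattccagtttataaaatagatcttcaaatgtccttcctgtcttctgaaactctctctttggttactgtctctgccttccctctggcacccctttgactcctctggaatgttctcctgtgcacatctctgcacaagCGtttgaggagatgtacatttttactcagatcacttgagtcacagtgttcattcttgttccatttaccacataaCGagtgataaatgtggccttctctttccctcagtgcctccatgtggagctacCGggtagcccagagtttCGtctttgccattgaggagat
The windows were 39.3% GC for Vmn2r11 and 44.7% for Vmn2r53. The Vmn2r53 bin shown above was 59.4% GC.

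No bin of any table overlapped any of the 116 autosomal Vmn2r promoter windows, and no whole peak did either. For 6 genes (Vmn2r1, Vmn2r2, Vmn2r4, Vmn2r6, Vmn2r94 and Vmn2r96) the start of the window lay 3470 to 33437 bases inside the RefSeq gene, and windows of the same size at the outer 5′ end of each of the 116 genes held 0 bins too. Among all 25748 autosomal promoter windows, 44.8% overlapped a bin. Base composition went with that share. The Vmn2r windows had a median GC content of 38% (quartiles 35.9% and 40%), against 53% for all windows, and a median of 1 CG pair against 7. Of all autosomal windows with at most 40% GC, only 51 of 2895, or 1.76%, overlapped a bin. Of the Vmn2r windows, 90 were that low, and 0 of them held one. Between 40% and 45% GC there were 24 Vmn2r windows, again with 0, against 230 of all 3102 (7.41%). Above 45% GC there were only 2 Vmn2r windows, of Vmn2r55 and Vmn2r29, also with 0, against 11256 of all 19751. The part of base composition was not tested. The letters TATAAA, searched on both strands, occurred in 27 Vmn2r windows (23.3%), in 14.2% of all windows and in 40.9% of those with at most 40% GC. The 33 Vmn2r windows with no CG pair made up 28.4%, against 5.58% of all windows and 25.1% of the low-GC windows.

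The bins closest to a promoter window stopped short of it. The nearest lay 16 bases beyond the downstream end of the Vmn2r53 window, in the female 3-week table, with an average log2 CPM of 2.41. The next was 109 bases from the Vmn2r56 window. A bin came within 1 kb of 6 of the 116 windows and within 10 kb of 49, and the median gap was 11286 bases. The tables placed 38 bins within 1 kb of a start site, 10 of them over it, at the start sites of Vmn2r30, Vmn2r56 and Vmn2r60. The start sites in the tables are those of the authors' transcript annotation, which can begin elsewhere than the RefSeq genes.

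Vmn2r bins were rich in repeats. In the table of control females, 69.0% of the 364 Vmn2r bins had at least 50% of their bases soft-masked, against 21.8% of the 114317 autosomal bins. The median masked share was 72.4% (quartiles 40.4% and 92.3%) for Vmn2r bins and 11.9% (quartiles 4.39% and 41.5%) for all bins. GC content did not set them apart, with medians of 53.9% and 54.4%. Both were far above the Vmn2r genes themselves, whose whole spans had a median GC content of 36.2%. The bins were thus GC-rich compared with the receptor genes, and mostly of repeat sequence. The GC content of the sequence between the genes, where most bins lay, was not measured. Of the 5716 autosomal bins above the 95th percentile of signal, 62.6% were at least 50% masked. Vmn2r bins were repeat-rich on both sides of that percentile, with 73.3% of the 75 above it and 67.8% of the 289 at or below it.

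**Figure D1:**
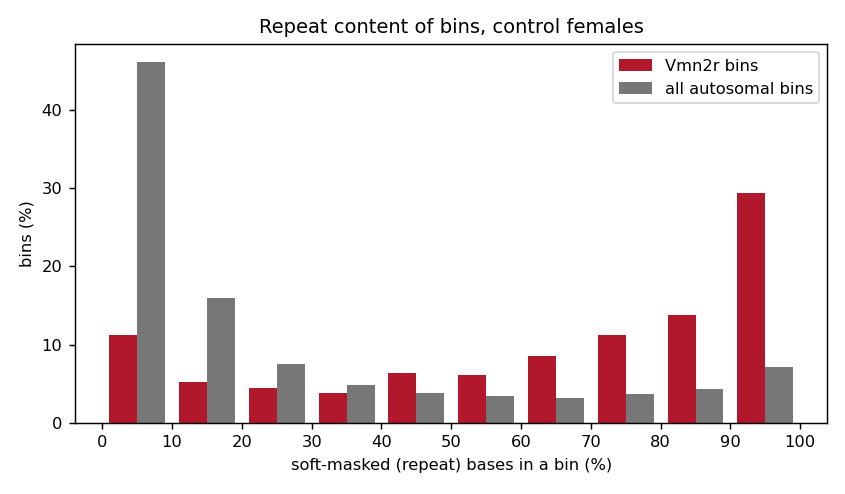
Share of bins (percent, vertical axis) by their soft-masked bases (percent, horizontal axis, steps of 10) in the table of control females, for Vmn2r bins (red) and all autosomal bins (grey). The step from 90 to 100 holds 29.4% of Vmn2r bins and 7.16% of all bins, and the step from 0 to 10 holds 11.3% and 46.1%.

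Many Vmn2r bins also resembled each other. With 1 bin per peak, and bins joined when they shared at least 50 runs of 20 letters on either strand, 156 of 420 female bins (37.1%) fell into 34 groups, and 152 of 448 male bins (33.9%) into 30. The same grouping was not made for other autosomal bins, so these shares are not read as particular to Vmn2r bins. The largest held 22 female bins near 21 genes on 5 chromosomes, and 30 male bins near 28 genes on 6, both with bins assigned to Vmn2r18, Vmn2r97, Vmn2r56, Vmn2r-ps11 and Vmn2r29. Bins in groups had a median masked share of 90.4% in females and 91.7% in males, and bins that stood alone 60.3% and 61.2%. Taking the strongest table of each peak, the median signal above the autosomal median was 0.51 in groups and 0.25 alone in females, and 0.49 and 0.34 in males, on the log2 scale. Groups differed among themselves. The other 4 of the 5 largest female groups, of 22, 17, 15 and 10 bins, had medians of 0.74, 0.61, 0.28 and 0.34, the last 2 close to the bins that stood alone.

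The bins mostly lay outside the receptor genes. Distal intergenic bins made up 56.5% to 59.0% of Vmn2r bins across tables, against 37.9% to 38.8% of all autosomal bins. Promoter annotation, within 3 kb of a start site, covered 3.62% to 4.89% of them, against 19.7% to 22.9% of all. Introns covered 28.3% to 30.4%, against 25.8% to 30.4%. The median distance to the start site was 27158 to 30612 bp, against 17050 to 17946 bp. Only 427 of the 2335 listed bins, or 18.3%, lay inside the start and end of the gene they were assigned to. Of the 789 in exons or introns, 448 were hosted by a transcript of another name. A bin in the promoter, exons, introns or 3′ UTR of the receptor itself was found 497 times, in 65 of the 100 genes, and in all 6 tables for 39 genes.

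Within the receptors most listed bins were in introns. Of the 497, 323 were in introns, 98 in promoters, 58 in 3′ UTRs and 18 in exons. In transcripts with 5 introns, the last intron held 99 of 268 listed bins, from 15 genes. The first intron held 61 from 11 genes, the third 53 from 8, the fourth 45 from 5 and the second 10 from 3. A peak counts once for each table that lists it. Lengths of introns and exons were not set beside these counts, so they show no preference for a part of the gene. The median signal above the autosomal median was highest in the third intron, at 0.47 log2, and lowest in the second, at 0.13.

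Vmn2r peaks were short. Their median length was 478 to 487.5 bp across tables, against 782 to 875 bp for all autosomal bins, and the longest was 6982 bp. Peaks of 10 kb or more gave 1413 to 1448 autosomal bins per table and 0 Vmn2r bins. Between 51.9% and 54.2% of Vmn2r bins were from peaks no longer than 1 bin, against 32.6% to 35.6% of all. Each longer peak was listed with 1 bin per table, so these counts are counts of peaks.

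The signal of Vmn2r bins was above the autosomal median in every table. The tables were normalised separately, so raw log2 CPM values of different tables are not directly comparable. Levels are therefore also given relative to the autosomal median of the same table. In females at 3 weeks the Vmn2r median was 2.59 log2 CPM against 2.40, a difference of 0.19, and in females at 8 weeks 2.91 against 2.62, a difference of 0.29. In males it was 2.29 against 2.03 at 3 weeks and 2.98 against 2.74 at 8 weeks, differences of 0.25 and 0.25. The control tables, which use the same control libraries, gave 0.23 in females and 0.26 in males. Scaled to 500 bp of bin width, the differences were larger, from 0.42 in females at 3 weeks to 0.52 in females at 8 weeks. The quartiles of the unscaled values overlapped in every table. Between 72.0% and 76.4% of Vmn2r bins were above the median, and 18.6% to 23.6% were above the 95th percentile. None came near the strongest autosomal bins, which reached 9.65 log2 CPM against 4.93 for Vmn2r bins.

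**Figure D2:**
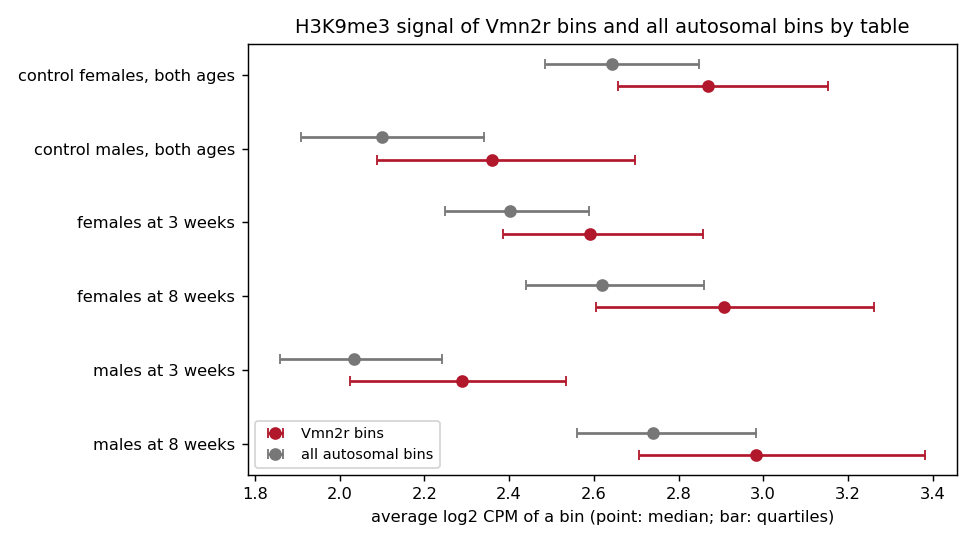
Average log2 CPM per bin (horizontal axis) in the 6 tables, for Vmn2r bins (red) and all autosomal bins (grey). Points are medians and bars run between the quartiles. The Vmn2r median is to the right in each table, by 0.19 to 0.29, and the bars overlap.

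Repeat content moved with this difference. In control females, among bins at least 50% soft-masked, the Vmn2r median was 2.91 and the autosomal median 2.79, a difference of 0.12. Among bins less masked than that, it was 2.82 against 2.62, a difference of 0.20. The part of repeat content in the difference was not tested.

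Gene by gene, 88 of the 100 genes had a median above 0 on this scale. The same count over all autosomal genes was not made, so it has no background. Only 65 of the genes had a bin in their own promoter or gene body, and the other medians are those of bins assigned from elsewhere. The gene medians ran from -0.23 for Vmn2r14 to 0.88 for Vmn2r11, with a middle value of 0.23. Of the 100 genes, 92 had a bin in all 6 tables. Vmn2r104 had the most listed bins, 84 over the tables, and Vmn2r43 the fewest, 2.

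Vmn2r11, on chromosome 5, had the strongest bin within a receptor. At 3 weeks its average log2 CPM was 3.53 in the female table and 3.29 in the male one. At 8 weeks it was 1.68 above the autosomal median in females, or 19.7 CPM, and 1.91 above it in males, at 4.65 log2 CPM. In the control tables the bin was at 3.88 for females and 3.66 for males. In CPM it was 25.1 in males at 8 weeks, where the autosomal median was 6.67. The bin, at chr5:109051073-109051547 in females, was annotated to exon 4 of 4 of a Vmn2r11 transcript and was 93.1% soft-masked. Relative to the autosomal median, the 3-week values were 1.13 in females and 1.26 in males, below both 8-week values.

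The neighbouring Vmn2r10 had its strongest bin in the 3′ UTR, at chr5:108990891-108991337 in females. Females had 3.49 log2 CPM there at 3 weeks and 4.00 at 8 weeks, and males 3.11 and 4.44. Relative to the autosomal medians these were 1.09 and 1.38 in females and 1.08 and 1.70 in males. Only 23.3% of this bin was soft-masked. Vmn2r86 on chromosome 10 also had its strongest bin in the 3′ UTR, with 3.11 and 2.63 log2 CPM at 3 weeks in females and males and 4.10 and 3.92 at 8 weeks. Relative to the autosomal medians these were 0.71 and 0.59 at 3 weeks and 1.49 and 1.18 at 8 weeks. At 12.2% masked, it was one of the less repetitive strong bins. The 3′ UTR label of both bins is that of the authors' annotation. By RefSeq both lie outside the genes, whose spans begin at 108995539 for Vmn2r10 and 130446199 for Vmn2r86.

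The intron bins of Vmn2r18 and Vmn2r53 are the shared element shown above. The Vmn2r18 bin in females was at 2.96 log2 CPM at 3 weeks and 3.89 at 8 weeks, or 0.56 and 1.27 above the autosomal medians. In males the strongest Vmn2r18 gene-body bin at 3 weeks, at 2.36, was in intron 3 rather than intron 1, and the intron 1 bin was at 4.31 at 8 weeks. These were 0.32 and 1.58 above the autosomal medians. The Vmn2r53 bin was at 3.07 and 2.62 in females and males at 3 weeks, and at 3.78 and 3.95 at 8 weeks. Relative to the autosomal medians it was at 0.67 and 0.58, then 1.16 and 1.21. Vmn2r6 on chromosome 3 and Vmn2r24 on chromosome 6 each had a bin in intron 3. Vmn2r6 gave 2.91 and 2.84 at 3 weeks and 3.83 and 3.81 at 8 weeks, and Vmn2r24 gave 3.06 and 2.71, then 3.77 and 3.69, for females and males. Relative to the autosomal medians Vmn2r6 was at 0.51 and 0.80, then 1.22 and 1.07. Vmn2r24 was at 0.66 and 0.68, then 1.15 and 0.95.

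The other named genes had lower maxima. For Vmn2r-ps54, a pseudogene, and for Vmn2r56, Vmn2r118, Vmn2r63, Vmn2r97, Vmn2r16, Vmn2r65, Vmn2r29, Vmn2r60, Vmn2r44 and Vmn2r55, the strongest promoter or gene-body bin lay between 0.09 and 1.04 above the autosomal median of its table. Vmn2r55 in males at 3 weeks was the lowest of these and Vmn2r56 in females at 8 weeks the highest. Vmn2r114 and Vmn2r62 were below 0 in some female tables. The Vmn2r114 bin was at 0.01 and -0.03 in females at 3 and 8 weeks, and at 0.76 and 0.74 in males. The female bin at 3 weeks was in the 3′ UTR, and the others were 2 to 3 kb from a start site. For Vmn2r62, an intron 5 bin was at -0.13 and 0.40 in females and at 0.50 and 0.72 in males.

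**Figure D3:**
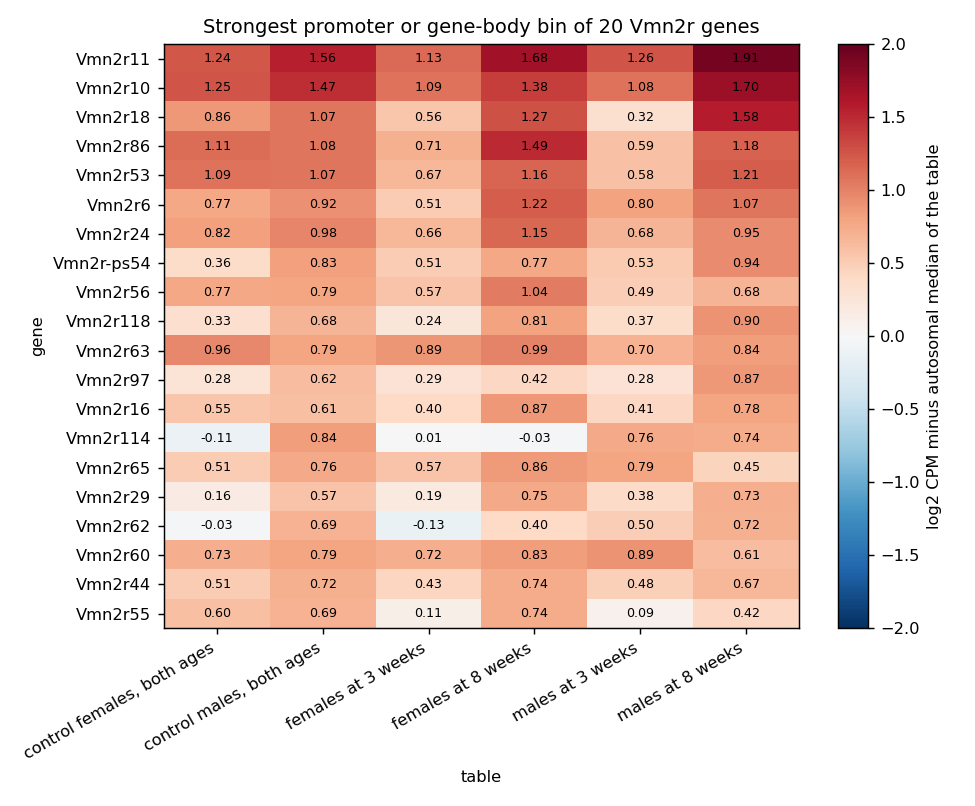
Average log2 CPM minus the autosomal median of the table (colour and printed value) for the strongest promoter or gene-body bin of 20 Vmn2r genes (rows) in the 6 tables (columns). Vmn2r11 is highest in males at 8 weeks, at 1.91, and the lowest value is -0.13, for Vmn2r62 in females at 3 weeks.

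Beyond the gene bodies, the intergenic Vmn2r112 bin printed above was the strongest Vmn2r bin of both control tables and of both 8-week tables. Females had 3.39 log2 CPM in the 3-week table and 4.46 (21.9 CPM) in the 8-week table, which are 0.99 and 1.84 above the autosomal medians. Males had 3.31 and 4.93 (30.6 CPM), which are 1.27 and 2.20 above them. In females at 3 weeks the Vmn2r11 bin was stronger, and in males at 3 weeks another intergenic Vmn2r112 bin, 111087 bp from the start site, was, at 3.36. Among the 12 strongest positions relative to the autosomal median, other intergenic bins were assigned to Vmn2r62, Vmn2r18, Vmn2r96 and Vmn2r97. The Vmn2r62 and Vmn2r96 bins were 6.59% and 13.2% soft-masked.

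The signal differed between clusters. Taking genes less than 1 Mb apart as 1 cluster gave 16. The largest, Vmn2r90 to Vmn2r110 on chromosome 17, held 20 genes and 88 to 102 bins per table, with a median of 0.18 above the autosomal median over all tables. Vmn2r57 to Vmn2r-ps158 on chromosome 7 held 10 genes and 51 to 60 bins, with a median of 0.35 and a range over tables of 0.28 to 0.42. The proximal cluster of chromosome 7, Vmn2r29 to Vmn2r45, was the lowest, at 0.01 (range over tables -0.04 to 0.06). The single gene Vmn2r120 on chromosome 17 was the highest, at 0.51, but with only 5 to 9 bins per table and a range of 0.31 to 0.91. The pair Vmn2r88 and Vmn2r89 on chromosome 14 had a median of 0.43 and 39 listed bins, all in introns of transcripts of Gm7247 and none in the receptors themselves.

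The proximal end of chromosome 7 was also where most receptors without an assigned bin lay. RefSeq holds 124 coding Vmn2r genes, 122 of them at a known place on the autosomes, and 26 of these had no assigned bin in any table. Of these, Vmn2r126 did hold 2 bins within its span, which the tables assigned to Vmn2r-ps158 at nearly the same coordinates. Of the 26, 16 were at the proximal end of chromosome 7, among them Vmn2r31, Vmn2r33 to Vmn2r42, Vmn2r46 and Vmn2r47. This is a region of recent duplicates, where a short read often has several places to go. The reads were paired, and the second read of a pair can place the first, so single stretches understate what could be placed. Of the 75-base stretches in these 16 genes, the length of the study's reads, the median gene had 15.5% that occurred only once on the chromosomes of GRCm38. For Vmn2r46 and Vmn2r47 it was 0%. The 96 genes with a bin had a median of 90.8%, and the 9 of them at the proximal end of chromosome 7 a median of 40.1%. An assigned bin often lay outside its gene, and the contrast was not there when genes were split by a bin inside their own span. The 48 genes with one had a median of 88.6% and the 74 without 89.3%. Uniqueness did not sort the genes completely. Vmn2r105, Vmn2r124, Vmn2r52 and Vmn2r70 had no bin, and 99.8%, 98.3%, 99.2% and 98.5% of their stretches were unique. The part of read placement in the missing bins was not tested.

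**Figure D4:**
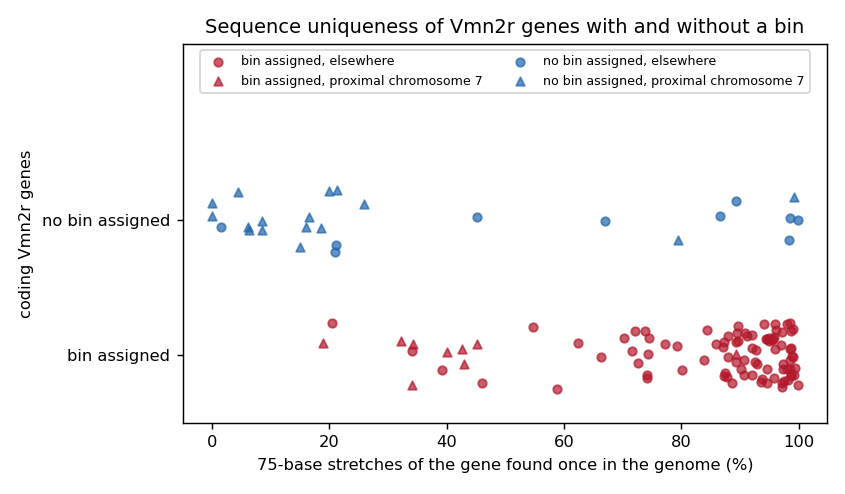
Share of 75-base stretches that occur once in the genome (percent, horizontal axis) for 122 coding Vmn2r genes with (red) and without (blue) an assigned bin. Triangles are genes at the proximal end of chromosome 7, and vertical spread within a row is only for display. Genes without an assigned bin have a median of 20.5% and genes with one 90.8%, while genes with and without a bin inside their span, not drawn, have 88.6% and 89.3%.

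The listed bins themselves were mostly mappable. In control females the median Vmn2r bin had 99.2% of its 75-base stretches unique, and 92.9% of the bins had at least 50% unique, against 97.7% of all autosomal bins. Fully unique bins were 47.8% of Vmn2r bins and 82.6% of all.

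Age was compared between the 3-week and 8-week tables of 1 sex, which share no library, at bins with the same coordinates. In females, 300 Vmn2r bins of 92 genes were matched. Their median difference, 8 minus 3 weeks, was 0.33 log2 (quartiles 0.11 and 0.50), against 0.22 for all 71972 matched autosomal bins (quartiles 0.04 and 0.40). In males, 305 bins of 93 genes had a median difference of 0.72 (quartiles 0.53 and 0.97), against 0.63 for all 68657 bins (quartiles 0.44 and 0.83). The Vmn2r bins thus differed from all bins by 0.11 and 0.09, and 62.3% and 62.0% of them were above the autosomal median difference. The size of the shift over all bins depends on the separate normalisation of the tables and is not read as a change with age.

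In females the age difference was also taken within repeat classes, over the 62474 matched autosomal bins for which masking was computed, where the difference without classes was 0.10. Among matched bins at least 50% masked, the Vmn2r median was 0.35 and the autosomal median 0.33, a difference of 0.03. Among the less masked bins, the medians were 0.25 and 0.19, a difference of 0.06. The part of repeat content was not tested, and males were not split in this way.

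For some genes the difference lay on the same side in both sexes. Of 65 genes with at least 2 matched bins in each sex, 33 were above the autosomal median difference in both, 13 below it in both and 19 on opposite sides. The same split was not made for all autosomal genes, so these counts have no background. Among genes picked for lying on the same side, Vmn2r11 was 0.53 above the autosomal median difference in females and 0.58 in males. Vmn2r86 was at 0.50 and 0.43, and Vmn2r112, with no bin in its own promoter or gene body, at 0.40 and 0.42. Vmn2r71 was at -0.21 and -0.29, and Vmn2r82 at -0.20 and -0.23. The median bin of each of these 5 genes rests on 2 to 8 matched bins. The single bin with the highest difference was the Vmn2r18 intron 1 bin in males, with 2.31 log2 CPM in the 3-week table and 4.31 in the 8-week table, or 1.37 above the median difference of all bins. The lowest difference in females was at a Vmn2r53 3′ UTR bin, with 2.93 and 2.26, or -0.88 relative to all bins. Variation between animals was not analysed for these values.

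**Figure D5:**
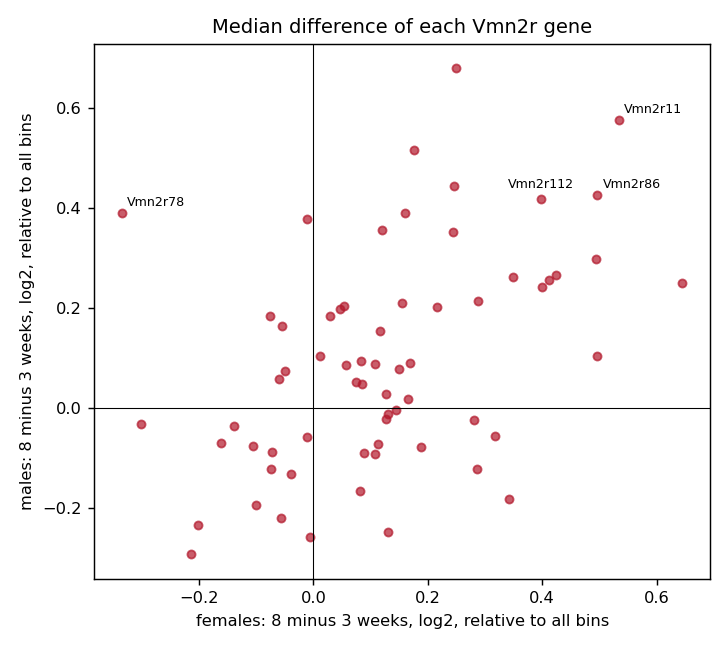
Median difference of each of 65 Vmn2r genes between the 8-week and 3-week tables, relative to the median of all matched autosomal bins (log2), in females (horizontal axis) and males (vertical axis). Each point is 1 gene, and 33 of them are above 0 on both axes, 13 below 0 on both.

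Peaks of Vmn2r genes were listed at both ages more often than peaks in general. Of 417 female Vmn2r peaks in the 3-week or 8-week table, 338 were in both, 49 only at 3 weeks (11.8%) and 30 only at 8 weeks (7.19%). For all autosomal peaks these shares were 25.3% and 8.87%. In males, 354 of 443 were in both, 72 only at 3 weeks (16.3%) and 17 only at 8 weeks (3.84%), against 38.2% and 3.13%. Vmn2r bins also had the higher signal, and its part in these shares was not tested.

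Males and females were compared at overlapping bins, since peaks were merged separately by sex and only 2 Vmn2r bins had the same coordinates. With at least 50% of both widths overlapping, 263 Vmn2r bins at 3 weeks had a median male minus female difference of -0.29 log2, against -0.32 for 56395 autosomal bins. At 8 weeks, 258 bins had a median of 0.08, against 0.10 for 48931. The Vmn2r bins thus stood 0.03 above and 0.01 below all bins, and 53.2% and 48.4% of them were above the autosomal median difference. Among peaks, 82.1% of female Vmn2r peaks overlapped a male autosomal peak and 77.7% of male Vmn2r peaks a female one, against 80.4% and 72.6% of all autosomal peaks. Vmn2r18 at 8 weeks was 0.29 higher in males relative to all bins, over 9 bins, and Vmn2r71 was 0.22 lower, over 4.

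Other genes of vomeronasal neurons were also listed, with signal that depended on the list. All 9 signalling genes of vomeronasal neurons, such as Gnao1, Trpc2 and the olfactory marker protein gene Omp, had a bin, and 8 had one in all 6 tables. Their bins had a median of -0.08 relative to the autosomal median. The 13 surface partners, which include the H2-M10 family of non-classical class I genes expressed with type 2 receptors, had a median of 0.19, and 10 had a bin in all tables. Of 6 formyl peptide receptor and pheromone genes, 5 had one, with a median of 0.32 and a median peak length of 441 bp. They are mostly a separate receptor family, and only 1 of the 5 had a promoter or gene-body bin in each of the 6 tables. Genes of neuron identity, such as Bcl11b and Meis2, had a median of -0.02. Of the 13 class C relatives of the receptors, 12 had a bin, with a median of 0.09. The share of all autosomal genes with an assigned bin was not computed, so these counts are not read as a trait of the lists.

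The tissue was checked on 12 hepatocyte genes, which liver transcribes. Of these, Alb, Apoa2, Tf and Fgb had no bin in any table. The other 8 had at least 1, with a table median between -0.08 and 0.03 relative to the autosomal median, so a bin was also listed at genes that liver transcribes.

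The type 1 receptors, the other vomeronasal family, had 289 to 332 bins of 123 to 134 genes per table. Their medians were 0.19 to 0.27 above the autosomal median, close to the range of the Vmn2r bins, and 1 of 206 of their promoter windows held a bin. Their peaks were also short, with medians of 504.5 to 552.5 bp and 43.7% to 50% of bins from peaks no longer than 1 bin. Only 16.3% to 18.1% of their bins were in promoters or gene bodies, against 41.0% to 43.5% of Vmn2r bins.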

How the data were processed

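Liver H3K9me3 ChIP-seq paired reads of 75 bases were mapped by the authors to mm10 (GRCm38) with BWA, and broad peaks came from MACS2. Blacklisted peaks were dropped, and peaks found in most replicates were merged over the conditions of a sex. Longer peaks were cut into 500-bp bins, which the authors counted with featureCounts, compared with edgeR and annotated with ChIPseeker.

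The deposited values used here are the authors' average log2 CPM per bin over the 8 libraries of a table. The tables also hold the authors' own comparisons (fold changes, p-values and FDRs), which were not used. Library depths and per-library values were not analysed here, so no test of diet, age or sex was made and medians describe bins, not animals. Each peak has 1 bin per table, and how it was chosen is not stated in the sources used here. Coordinates, widths and distances were read as deposited.

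Members were rows with a symbol starting with Vmn2r on autosomes. The members and gene lists were chosen with earlier results of these data known. A bin belonged to a receptor when it was in its promoter (3 kb), in an exon or intron of a transcript that GENCODE M21 (GRCm38), the annotation at hand, names as that gene, or in a UTR inside its span. Genes were ranked by the number of tables with such a bin, then by its highest log2 CPM, and the first 20 are named with values. GC content, soft-masking and 75-base uniqueness came from the chromosomes of the RefSeq GRCm38.p6 sequence, the same build as the tables. Promoters came from its promoter table (the first entry of each gene), where 116 autosomal Vmn2r entries matched. The counting of 75-base stretches and of shared stretches was tested on simulated sequence. Analyses used Python 3.11.15, numpy 2.4.6, pandas 2.3.3 and scipy 1.17.1.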

Additional observations from a re-analysis of the deposited data

How the results depend on the processing

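The Vmn2r signal stayed above the autosomal median in all 38 alternatives tried on it, between 0.12 and 0.52 log2. In 29 of these it stayed within the 95% order-statistic interval of the main median, taken over bins. That interval is only a yardstick, since bins are not replicates. The alternatives are the same few settings repeated over tables that share libraries. Scaling to 500 bp of bin width raised the difference to 0.44 and 0.48 in the control female and male tables, to 0.42 and 0.52 in females at 3 and 8 weeks, and to 0.45 and 0.48 in males. Vmn2r bins are the shorter ones, so this scaling raises them. With single-bin peaks only, the difference fell to 0.17 in control females and 0.21 in control males. With bins at least 50% soft-masked, an alternative chosen after seeing the data, it fell to 0.12 in control females. Promoter and gene-body bins alone left 981 of the 2335 listed bins, and bins inside the gene's own start and end left 427. With a 1 kb promoter the share of bins in promoters or gene bodies was 39.4% in place of 42.0%.

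The difference between ages kept its direction in each alternative. Matching by overlap picked the same 300 female and 305 male bins, so it was no separate check. The other alternatives were subsets of these bins. The count of promoter windows with a bin stayed at 0 with whole peaks or windows at the outer gene ends (both chosen after seeing the data). The male minus female value at 3 weeks turned from -0.09 at the 2 bins with the same coordinates to 0.028 at bins overlapping by at least 50%, so it has no settled direction. No replicate could be left out, and no paired analysis was possible because the tables hold averages over libraries and not values per library. The depth behind each value was not analysed here.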
